A study of Mus musculus with 3 samples.

Results

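The ubiquitin-conjugating (E2) enzymes are the middle step of the cascade that attaches ubiquitin and related small proteins to their targets. The family was taken as all genes whose symbol starts with Ube2, except Ube2l6, that have at least 1 transcript annotated as protein-coding. This gave 36 of 55536 annotated genes. The 7 Ube2 genes left out were Ube2l6 and 6 without a protein-coding transcript: Ube2nl, Ube2d4, Ube2d-ps, Ube2uos, Ube2l3-ps1 and Ube2n-ps1. Among the 36, Ube2cbp is named for binding an E2 and is known as an E3 ligase, so the symbol rule takes in 1 gene that is not an E2.

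RNA was measured by total RNA-seq, with ribosomal RNA depleted, in the cytosolic fraction of macrophages grown from bone marrow of C57BL/6J mice. Lipid A, the part of bacterial endotoxin that activates the receptor TLR4, was given at 100 ng/ml for 12 h, was washed out for another 12 h and was given again at 100 ng/ml for 30 min. All 3 libraries come from this 1 treatment and are numbered as biological replicates 1 to 3 with a single donor entry, so the spread between them may be technical. No untreated cells or other times are compared, and no value below is a response to Lipid A. Annotated genes held between 28759407 expected counts (replicate 1) and 54709008 (replicate 2). All 10 macrophage markers examined were detected, and 0 of 5 neutrophil, 0 of 5 T and NK, 0 of 4 B cell and 0 of 4 stromal markers were.

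An E1 enzyme activates ubiquitin, passes it to a cysteine in the active site of an E2, and an E3 ligase brings the loaded E2 to a substrate. The E2 decides much of what is built, since some E2s start a chain and others extend it through a particular lysine of ubiquitin. Ube2n makes chains linked through lysine 63 with Ube2v1 or Ube2v2. In macrophages, those made with Ube2v1 carry signals from TLR4 to the kinases that activate NF-κB. Ube2l3 serves the ligase complex that builds linear chains in the same pathway.

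The active site gives the family its shared sequence: a histidine, proline and asparagine (His-Pro-Asn) followed by the catalytic cysteine. In the longest coding sequence of each gene, in-frame codons for His-Pro-Asn were present in 22 of the 36 members. In 19 of them (52.8%) a cysteine codon stood exactly 10 codons after the histidine, against 0.320% of 21866 protein-coding genes with a coding sequence (70 genes). The windows below show this in abundant members of several roles, and in Ube2k, where the first cysteine comes 11 codons after the histidine. They are mouse mm10 sequence of GENCODE M21 transcripts, printed 5′ to 3′ on the coding strand and each within 1 exon. The His-Pro-Asn codons and the cysteine codon are in capitals. Each window is from the transcript with the longest coding sequence, whatever its level. For Ube2d3 that is Ube2d3-208, which had 0 expected counts in all 3 libraries.
Ube2d3 (chr3:135459993-135460037, plus strand): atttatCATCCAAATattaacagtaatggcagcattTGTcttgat
Ube2l3 (chr16:17160036-17160080, minus strand): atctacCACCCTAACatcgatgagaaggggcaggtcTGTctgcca
Ube2n (chr10:95541397-95541441, plus strand): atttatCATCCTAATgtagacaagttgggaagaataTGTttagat
Ube2s (chr7:4810473-4810517, minus strand): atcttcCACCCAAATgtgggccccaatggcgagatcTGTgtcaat
Ube2m (chr7:13036220-13036264, minus strand): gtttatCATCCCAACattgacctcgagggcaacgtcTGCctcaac
Ube2k (chr5:65581404-65581451, plus strand): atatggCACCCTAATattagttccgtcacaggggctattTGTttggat

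Ube2h had the same spacing as Ube2k, 11 codons, and Ube2u had no cysteine codon within 15 codons of its histidine codon. The other 14 members had no His-Pro-Asn codons. They included Ube2v1 and Ube2v2, which are known to lack the catalytic cysteine, and also enzymes with variant active sites, among them Ube2e1, Ube2j1, Ube2j2, Ube2q1, Ube2w, Ube2z and the very large Ube2o. Of the 19 with the 10-codon spacing, 14 were detected, at mean levels between 6.71 and 123 TPM with a median of 35.2 TPM. TPM expresses the reads of a gene per length, as its share of all transcripts in a library, so levels of different genes can be set side by side. Of the 14 without these codons 11 were detected, between 1.58 and 49.5 TPM with a median of 12.8 TPM. The 2 ranges overlap.

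Most of the family was present in the cytosol, with the broad ubiquitin E2s Ube2d3 and Ube2l3 highest. At least 1 TPM in every library, the limit for detection used here, was reached by 27 of 36 members, against 41.2% of 22028 protein-coding genes. The median member stood at 3.88 ± 0.03 on the log2(TPM + 1) scale (SD, n = 3), and the median protein-coding gene at 0.19 ± 0.01. Among detected genes alone the medians were 4.40 ± 0.16 for the 27 members and 3.21 ± 0.04 for 9080 protein-coding genes. The members summed to 836, 819 and 775 TPM in replicates 1, 2 and 3. A single gene, Ube2d3, held 15.1% ± 0.982 of that sum and the 5 highest members 46.8% ± 0.333, so the share of the leading members varied little between libraries. In bulk RNA, fewer cells that express a gene and less RNA per cell cannot be told apart.

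**Figure D1:**
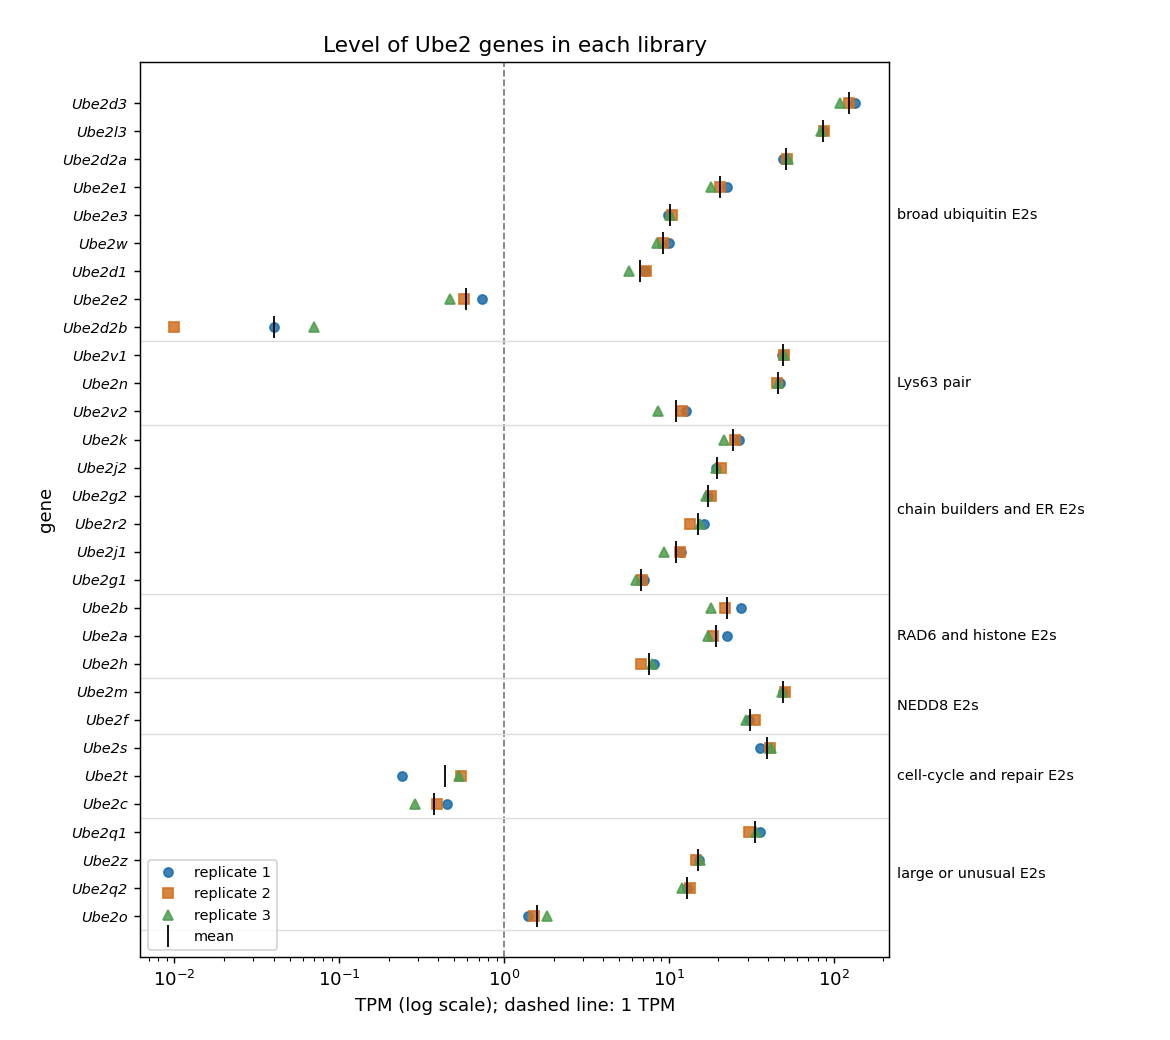
TPM (log axis) of members above 0 TPM in all 3 libraries, for genes reported here; points are libraries, black ticks the mean of 3, genes are grouped by role and the dashed line marks 1 TPM. Ube2d3 is highest in every library, and Ube2e2, Ube2d2b, Ube2t and Ube2c lie left of the line.

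The broad ubiquitin E2s work with many different E3 ligases and held 37.9% ± 0.514 of the family's TPM. Ube2d3 (ENSMUSG00000078578.9, chromosome 3, 135438149 to 135468198), a member of the Ube2d group that starts chains with most RING ligases, was at 135, 124 and 109.8 TPM in replicates 1, 2 and 3. It was the only member above 100 TPM in every library, and its lowest library exceeded the highest of every other member. Ube2l3 (ENSMUSG00000038965.17, chromosome 16, 17152013 to 17202649), the E2 of ligases that carry ubiquitin on a cysteine of their own, was at 86.4, 87.7 and 84.0 TPM. Its libraries lay within a narrow band, with a mean of 86.0 ± 1.86 TPM.

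The Ube2d group was unequal. Ube2d2a, a close paralog of Ube2d3, was at 49.2, 52.0 and 53.0 TPM, and Ube2d1, a further enzyme of the group, at 7.14, 7.24 and 5.75 TPM. Ube2d3 exceeded Ube2d1 by 4.01 ± 0.07 and Ube2d2a by 1.24 ± 0.20 in log2(TPM + 1), which in TPM is a ratio of 18.4 ± 1.09 and 2.40 ± 0.333. The libraries of the 3 genes did not overlap. The remaining Ube2d-like members Ube2d2b, Ube2dnl1 and Ube2dnl2 were not detected.

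The Ube2e enzymes, which carry a longer amino-terminal tail, were lower than Ube2d3 and Ube2l3. Ube2e1 was at 22.5, 20.4 and 17.9 TPM, and Ube2e3 at 9.83, 10.4 and 10.1 TPM. Ube2e1 exceeded Ube2e3 by 0.93 ± 0.17 in log2(TPM + 1), while the third paralog, Ube2e2, stayed under the limit at 0.590 ± 0.131 TPM. Ube2w, known for attaching ubiquitin to the amino terminus of proteins, was at 10, 9.15 and 8.44 TPM.

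The pair that makes lysine 63 chains was abundant at the gene level. Ube2n (ENSMUSG00000074781.5, chromosome 10, 95515145 to 95545657), the catalytic partner, was at 47.1, 45.4 and 45.7 TPM. Ube2v1 (ENSMUSG00000078923.10, chromosome 2, 167607638 to 167632095), the inactive partner used in NF-κB signalling, was at 48.8, 49.9 and 49.8 TPM. The difference of Ube2n and Ube2v1 was −0.10 ± 0.04 in log2(TPM + 1), which did not exceed 3 SD. Ube2v2, the alternative partner known for DNA repair, was at 12.7, 12.0 and 8.56 TPM, a mean of 11.1 that was 19.4 with the TPM of its near-identical copies added. Ube2n exceeded it by 1.98 ± 0.27 and Ube2v1 exceeded it by 2.08 ± 0.29, so that the 2 inactive partners differed in every library.

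The level of Ube2n depended on which transcripts were counted, more than that of any other member. Its most abundant transcript by TPM was Ube2n-204, annotated as a processed transcript without a coding sequence, at 23.9, 21.9 and 22.4 TPM. Its only protein-coding transcript, Ube2n-201, was at 3.62, 4.73 and 3.26 TPM, and Ube2n-205, annotated as a target of nonsense-mediated decay, at 15.5, 16.6 and 13.4 TPM. Ube2n-201 held 33.8% ± 4.16 of the expected counts of the gene but 8.41% ± 1.76 of its TPM, since it is 3867 bases long and Ube2n-204 is 759. With protein-coding transcripts alone, Ube2n minus Ube2v1 was −3.38 ± 0.22 and Ube2n minus Ube2v2 was −1.31 ± 0.23, which turns the direction of the latter. The second deposited quantification gave Ube2n-204 the lead as well, and 23.6% ± 1.17 of the estimated counts to the protein-coding transcript.

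Ube2n also shares its sequence with pseudogenes. Ube2n-ps1, a processed copy on chromosome 5 (76232612 to 76233070), was 100.0% identical to a Ube2n transcript over its whole length. It received 300.4, 689 and 521 expected counts, 13.5% of those of the pair. Its level was 27.2 TPM. These reads were divided by the authors' model, and how many came from either gene cannot be told from the tables.

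Chain-building and endoplasmic reticulum E2s were of middle level. Ube2k, which builds lysine 48 chains that mark proteins for the proteasome, was highest at 26.8, 25.3 and 21.7 TPM. With protein-coding transcripts alone its mean was 15.6 ± 1.37 TPM in place of 24.6 ± 2.63, below Ube2j2 (19.3) and Ube2g2 (17.3) of the same group. Ube2r2, a partner of cullin ligases related to Cdc34, was at 16.4, 13.5 and 15.4 TPM. Ube2k was lowest in replicate 3 and Ube2r2 in replicate 2.

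The E2s of endoplasmic reticulum quality control came as unequal pairs. Ube2j2, which is anchored in that membrane, was at 19.3, 20.6 and 19.2 TPM, and its relative Ube2j1 at 11.9, 11.7 and 9.29 TPM. Ube2j1 minus Ube2j2 was −0.80 ± 0.17 in log2(TPM + 1). Ube2g2, which acts with the ligases of the same pathway, was at 17.2, 18.1 and 16.7 TPM against 7.08, 6.91 and 6.34 TPM for Ube2g1. The difference of Ube2g1 and Ube2g2 was −1.24 ± 0.06, and only Ube2n minus Ube2v1 had a smaller SD.

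The RAD6 enzymes Ube2a and Ube2b, which ubiquitinate histone H2B and the replication clamp PCNA, were close to each other. Ube2a was at 22.4, 18.6 and 17.2 TPM and Ube2b at 27.5, 21.8 and 17.9 TPM. Both were highest in replicate 1 and lowest in replicate 3. Ube2a minus Ube2b was −0.18 ± 0.12 in log2(TPM + 1), which did not exceed 3 SD. Ube2h, the E2 of the CTLH ligase, was lower at 8.15, 6.76 and 7.88 TPM.

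Both E2s of NEDD8, a ubiquitin-like protein that activates cullin ligases, were abundant. Ube2m, the E2 that passes NEDD8 to most cullins, was at 49.3, 50.4 and 48.8 TPM, and Ube2f, the E2 that passes it to Cul5, at 30.7, 33.3 and 29.2 TPM. Ube2m exceeded Ube2f by 0.66 ± 0.07 in log2(TPM + 1). With protein-coding transcripts alone that difference was 0.24 ± 0.12 and did not exceed 3 SD.

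The cell-cycle E2s were split. Ube2s, which extends lysine 11 chains for the anaphase-promoting complex, was at 35.6, 40.9 and 41.4 TPM. Ube2c, which starts those chains, was at 0.450, 0.390 and 0.290 TPM, and Ube2t, the E2 of the Fanconi anemia repair pathway, at 0.240, 0.550 and 0.530 TPM. Ube2c minus Ube2s was −4.87 ± 0.20 in log2(TPM + 1), the widest of the pairs compared. In the second quantification it was −3.82, less wide than Ube2d3 minus Ube2d1 at 3.99. TPM of the second was not rescaled here and put Ube2s at 16.9 in place of 39.3, so the added 1 TPM weighs more there. With 0.1 TPM added in place of 1, the first gave −6.38 for Ube2c minus Ube2s and 4.18 for Ube2d3 minus Ube2d1. The order of these 2 pairs in the second therefore depends on scale. Of 8 proliferation markers, 3 were detected: Mki67 at 2.90, Top2a at 3.00 and Cdk1 at 5.80 TPM. Ccnb1 (mean 0.887 TPM), Aurka (0.900) and Birc5 (0.843) lay just under the limit, and Cdc20 (0.207) and Plk1 (0.140) farther below it. Ube2s overlaps the ribosomal protein gene Rpl28 (171 TPM) on the opposite strand by 183 exonic bases, and whether counting used strand is not given in the sources used here. Those bases lie only in Ube2s-202, with 11.3, 58.4 and 84.2 expected counts, and the main transcript Ube2s-201 has 0 such bases and 1528, 3528 and 2927 counts.

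Among large or unusual E2s, Ube2q1 led at 35.5, 30.5 and 33.9 TPM, above its paralog Ube2q2 at 12.9, 13.5 and 12.0 TPM. Ube2q1 exceeded Ube2q2 by 1.31 ± 0.17 in log2(TPM + 1). Ube2z, which is loaded by the alternative E1 Uba6, was at 15.2, 14.6 and 15.5 TPM. Ube2o, which joins E2 and E3 activity in 1 chain, was the lowest detected member at 1.40, 1.52 and 1.82 TPM.

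The 9 members that were not detected were Ube2e2, Ube2t, Ube2c, Ube2d2b, Ube2cbp, Ube2dnl1, Ube2dnl2, Ube2ql1 and Ube2u. The last 4 had 0 expected counts in all 3 libraries. A count of 0 allows up to 3 counts, or 0.104, 0.0548 and 0.0601 CPM (counts scaled to the library's total) in replicates 1, 2 and 3, for counting error only. Ube2d2b had 3.00, 2.00 and 9.00 counts, and Ube2cbp 0, 1.00 and 3.00.

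In the order of mean TPM, 10 of the 26 neighbouring pairs of detected members had libraries that did not overlap. The order was clear at the top, where Ube2d3 stood above Ube2l3 and both above Ube2d2a. Ube2d2a, Ube2v1 and Ube2m had neighbours that overlapped, and from Ube2k down to Ube2g2 and from Ube2z down to Ube2w all neighbours overlapped.

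**Figure D2:**
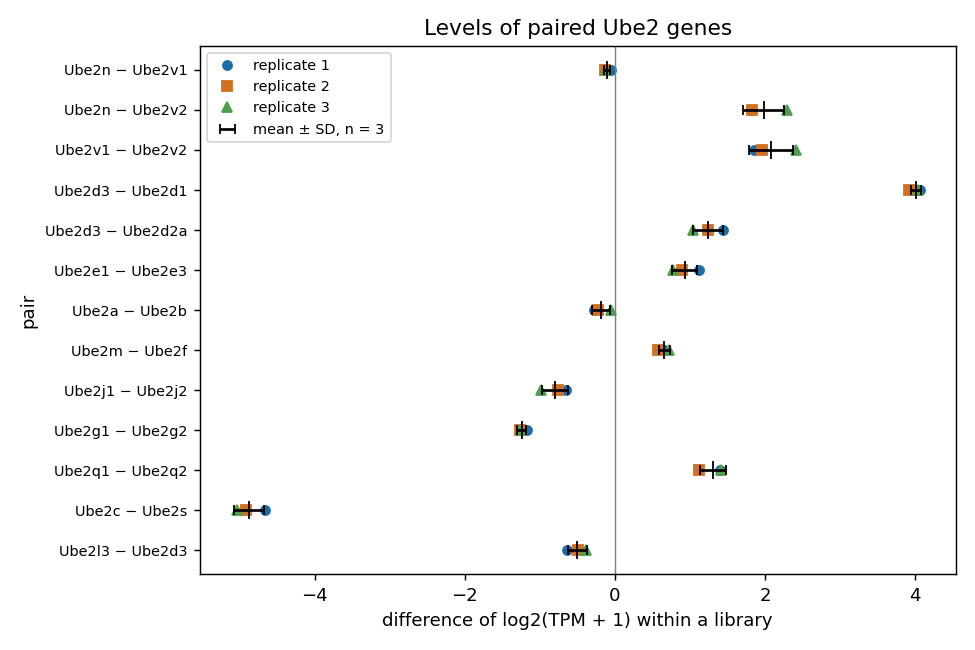
Difference of log2(TPM + 1) between 2 genes within each library for 13 pairs; points are libraries, black ticks and bars the mean ± SD (n = 3). Ube2n against Ube2v1 and Ube2a against Ube2b lie near 0, and Ube2d3 minus Ube2d1 (4.01) and Ube2c minus Ube2s (−4.87) lie farthest from it.

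Of the 13 pairs, chosen by role or paralogy, 11 differed with the same sign in all libraries and by more than 3 SD. Ube2l3 minus Ube2d3, the 2 highest members, was −0.50 ± 0.13 in log2(TPM + 1). It no longer exceeded 3 SD without replicate 2 (−0.51) or with protein-coding transcripts alone (−0.24). With 3 libraries the smallest p of an exact two-sided sign-flip test is 0.25, and all 13 pairs had it.

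Transcript types separated a few members from the rest. The most abundant transcript by TPM was protein-coding in 26 of 27 detected members, against 95.2% of 9075 detected protein-coding genes, and Ube2n was the exception. By expected count it was protein-coding in all 27, with Ube2n-201 at 33.8% of Ube2n ahead of Ube2n-205 at 32.1%. By TPM in the second quantification it was protein-coding in 25. The share of all genes was not determined for these 2 settings. Protein-coding transcripts held at least 90% of expected counts in 22 of the 27, and in 7560 of 9080 detected protein-coding genes. The median share was 99.4% for members and 99.1% for those genes. The members under 90% were Ube2n, Ube2o at 77.9% ± 2.06, Ube2m at 80.4% ± 4.07, Ube2k at 80.8% ± 1.21 and Ube2d3 at 89.4% ± 3.45.

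The leading transcript outside the protein-coding type differed between them. In Ube2m it was Ube2m-205, which retains an intron, at 10.7 TPM in replicate 1 and about 15 TPM in each of the others. In Ube2k it was Ube2k-209, a target of nonsense-mediated decay, at 10.2, 8.92 and 7.37 TPM. In Ube2d3 it was Ube2d3-214, of the same type, at 17.1, 20.1 and 23.0 TPM. In Ube2o processed transcripts held 22.1% of expected counts, while the second quantification placed 100.0% on the protein-coding transcript. With protein-coding transcripts alone the mean of Ube2d3 was 102 ± 15.6 TPM in place of 123 ± 12.5.

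Some protein-coding transcripts of these genes have short coding sequences. Ube2m-208, with 258 coding bases, was at 24.9, 20.3 and 19.2 TPM, against 11.7, 12.7 and 11.4 TPM for Ube2m-201, which has 549. Ube2l3-203, with 366 coding bases, was at 41.4, 43.4 and 44.5 TPM beside 42.8, 41.4 and 38.0 TPM for Ube2l3-201 with 462. By expected counts Ube2l3-201 held 83.3% ± 1.45 of the gene, since it is 2609 bases long against 650. A share in TPM and a share in counts therefore rank these transcripts differently. In Ube2d3 the libraries lay farthest apart in Ube2d3-201, at 63.4, 46.7 and 34.5 TPM, whereas Ube2d3-202 was at 23.9, 26.8 and 23.8 TPM. Both have 441 coding bases.

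**Figure D3:**
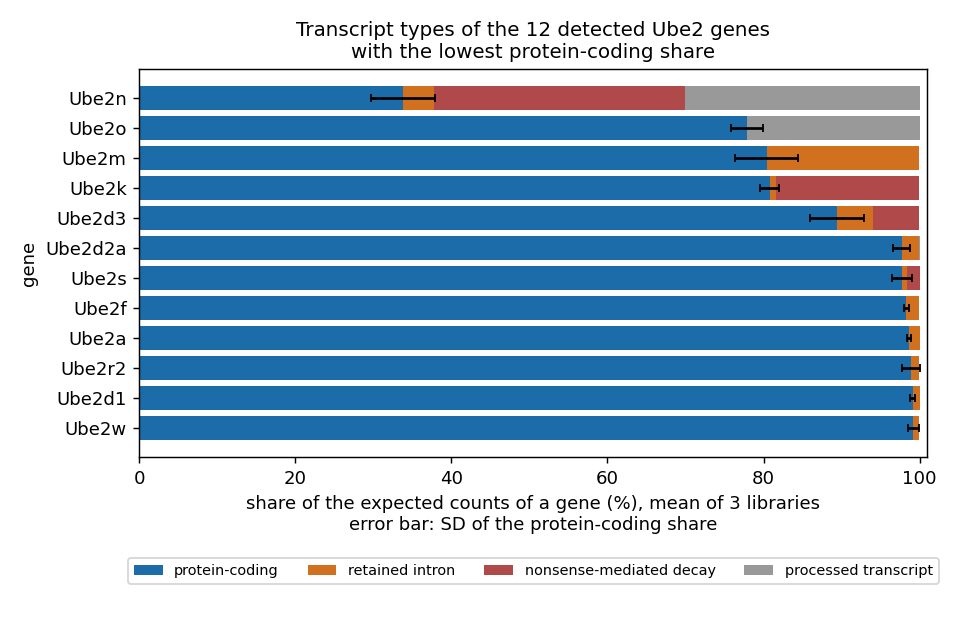
Share of the expected counts (%) of each gene on each transcript type, mean of 3 libraries, for the 12 detected members with the lowest protein-coding share; error bars are the SD of the protein-coding share. Ube2n stands alone at 33.8%, and 4 others lie under 90%.

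The replicates of most members lay close together but differed by more than counting noise. Of 30 members with a mean count of at least 10, 26 differed between libraries in a chi-square test of rounded counts given TMM-scaled library sizes (Benjamini-Hochberg adjusted p under 0.05 over all 13410 genes tested), against 64.8% of all genes. The count was 25 without replicate 1 (51.5% of all genes tested), 14 without replicate 2 (44.3%) and 15 without replicate 3 (42.5%), so the last 2 lie near the share of all genes. Members within counting noise were Ube2z (adjusted p = 0.519), Ube2e2 (0.128), Ube2t (0.0648) and Ube2c (0.422), of which only Ube2z is an abundant gene. The ratio of the highest to the lowest library had a median of 1.17 for members and 1.24 for all genes, again not matched by count. It was under 1.5 for 27 of the 30, all but Ube2e2, Ube2t and Ube2c, which had at most 49.0 counts in any library. The share of all genes under 1.5 was not determined. The biological coefficient of variation estimated by edgeR had a median of 0.107 over the 27 members with a mean count of at least 100, against 0.123 over 10234 such genes.

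It was lowest for Ube2z (0.0999), followed by Ube2m and Ube2e3 (0.102), and highest for Ube2o (0.139), Ube2d1 (0.139), Ube2v2 (0.136), Ube2b (0.133) and Ube2d3 (0.129). The 5 members of highest dispersion thus included both the highest and the lowest detected gene of the family. edgeR draws each estimate towards a trend shared by genes, so this order is not that of the raw spread. By the coefficient of variation of TPM, Ube2d3 (10.2%) varied less than Ube2a (14.0%), Ube2j1 (13.4%) and Ube2e1 (11.2%). Ube2b had the highest coefficient of variation of TPM among detected members, 21.5%. In TMM-scaled CPM it was at 53.7, 47.7 and 37.9, a ratio of 1.42 between the highest and the lowest library.

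Most members were lower in replicate 3 than in the other libraries. Set against the mean of the others in TMM-scaled CPM, 23 of 30 members were lower there and 7 higher. Their median log2 ratio was −0.15, where 50.4% of 13410 genes were higher. In replicate 2, 25 members were higher and 5 lower, with a median of 0.12, where 50.8% of genes were higher. In replicate 1, 17 were higher and 13 lower, with a median of 0.03, where 47.4% of genes were higher, and without replicate 3 the count was 10, where 49.0% of genes were higher. These comparisons of single libraries have no replicate check.

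The lowest ratios in replicate 3 among detected members were those of Ube2b (−0.42), Ube2v2 (−0.42), Ube2j1 (−0.38), Ube2d1 (−0.35) and Ube2e1 (−0.31). Ube2o (0.27) and Ube2r2 (0.11) were the detected members farthest the other way. In replicate 3, retained-intron transcripts held 2.71% of the expected counts of the detected members, against 1.84% in replicate 1 and 1.49% in replicate 2. Without Ube2d3 and Ube2n the share was 1.23%, 1.28% and 1.80% in replicates 1, 2 and 3. Over all annotated genes the share was 1.44%, 1.26% and 1.69% in replicates 1, 2 and 3. Of the 21 detected members with any such counts, 18 had the highest share in replicate 3, against 71.9% of 5464 detected genes. In Ube2d3 the share was 4.44%, 2.38% and 6.94%, and in Ube2n 3.33%, 2.23% and 6.41%. The share and the level did not move together in every member. Of members higher in replicate 3, Ube2r2 had its lowest share there (2.32%, 0.753% and 0.125%), while Ube2s (0.481%, 0.178% and 0.938%) and Ube2q1 (0.304%, 0.326% and 1.11%) had their highest. For Ube2r2 the share rests on few counts, with Ube2r2-202 at 55.5, 22.6 and 0. The second quantification put that transcript at 22.9% of the gene's TPM, against 4.84% in the first. Ube2g1, lower in replicate 3 at a log2 ratio of −0.17, had its highest share in replicate 1 (0.824%, 0.225% and 0.543%). The part of retained-intron RNA in the lower levels of replicate 3 was not tested.

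**Figure D4:**
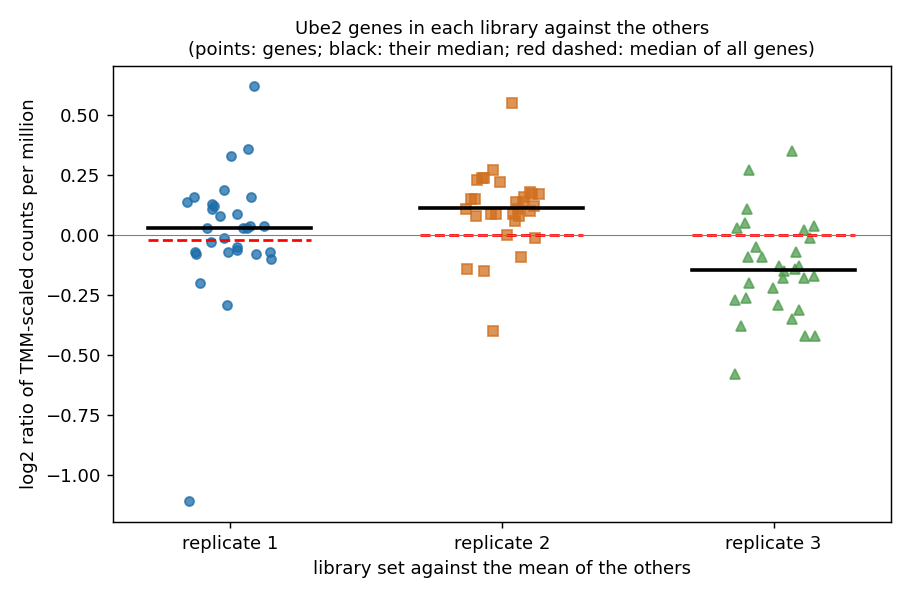
Log2 ratio of TMM-scaled CPM of each library over the mean of the others for the 30 members with a mean count of at least 10; points are genes, black lines their median and red dashed lines the median of all 13410 genes. The members' median is 0.12 in replicate 2 and −0.15 in replicate 3, and the lowest point in replicate 1 is Ube2t (−1.11), a gene with 11.0 counts there.

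The 2 deposited quantifications gave similar levels once both were rescaled to the TPM of nuclear protein-coding genes. Over 26 members with at least 5 TPM the second minus the first was a median of 0.06 in log2, from −0.10 to 0.53, and 25 lay within 0.5. Over 6007 genes the median was −0.01 and 97.8% lay within 0.5. The largest differences were those of Ube2r2 (0.53), Ube2w (0.33), Ube2a (0.29), Ube2k (0.28) and Ube2b (0.24), all higher in the second. Ube2r2 was at 51.8 ± 3.27 rescaled TPM in the first and 74.9 ± 4.61 in the second, a gap larger than the spread of either. Its protein-coding transcript Ube2r2-201 held 94.4% of the gene's TPM in the first and 63.2% in the second. The rest was on retained-intron transcripts. Both tables named the same leading transcript in 24 of 27 members, and Ube2m and Ube2k were among the others.

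**Figure D5:**
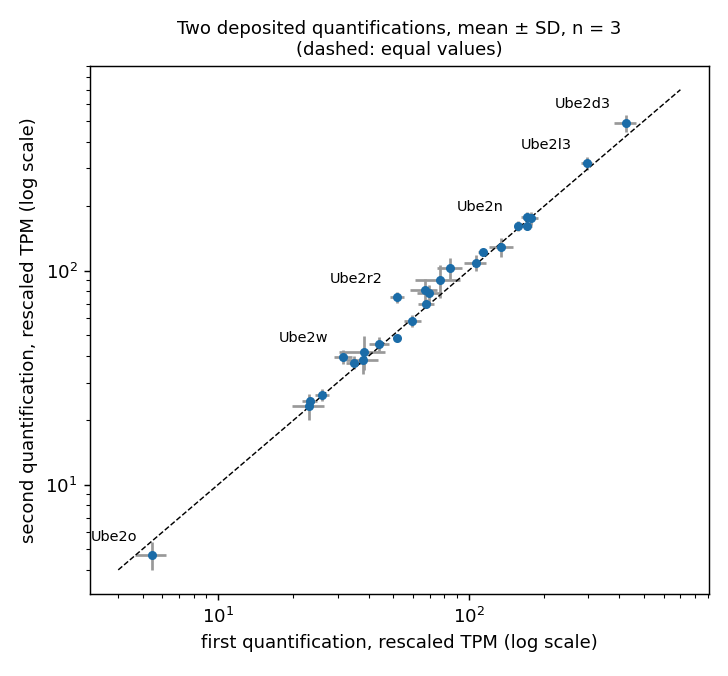
Rescaled TPM of detected members reported here in the first (x axis) and the second (y axis) deposited quantification, both log axes; points are means and bars the SD (n = 3), and the dashed line marks equal values. Ube2r2 lies farthest above the line, and Ube2o, at 5.44 and 4.69 (a log2 difference of −0.21), is the lowest point and was left out of the counts above because its mean is under 5 TPM.

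Near-identical copies, at least 95% identical over at least 80% of the shorter transcript, existed for 12 members. Of the 35 copies 14 had 0 counts in every library, among them Gm20431 and AC141471.2, which overlap Ube2v1 and Ube2d2a on the same strand. Gm2058 lies within Gm26526, both copies of Ube2h. The 35 are thus annotated genes and not all separate loci. Besides Ube2n-ps1, the copies with the largest share of a pair's counts were Gm6361 of Ube2v2 at 12.7% and Spopl of Ube2d3 at 5.77%. Spopl is a protein-coding gene of another family, and the processed copy Gm13331 of Ube2d3 lies within its bounds on chromosome 2. The 5.77% takes all counts of Spopl, and the part of them on the shared sequence is not known. The copy Gm8325 of Ube2v1 was at 119.8 TPM with a mean of only 128 counts, 1.94% of the pair's. Adding the TPM of its copies to each member made Ube2n minus Ube2v1 −1.20 ± 0.09, which exceeded 3 SD, and Ube2v1 minus Ube2v2 3.06 ± 0.18. It raised the mean of Ube2n from 46.1 to 73.3 TPM, and that of Ube2v1 from 49.5 to 169 TPM. The rise of Ube2v1 came from Gm8325 alone, so both differences depend on a copy with 1.94% of the pair's counts. An order of Ube2v1 above Ube2d3 cannot be drawn from this sum.

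The steps before and after the E2s were almost all present. All 8 E1 enzymes examined were detected, with Uba7, the E1 for ISG15, highest at 58.8 ± 11.9 TPM, then the main ubiquitin E1 Uba1 at 39.3 ± 2.92 TPM and the SUMO E1 subunit Sae1 at 16.1 ± 0.917 TPM. Among 10 modifiers, all detected, Isg15 was highest at 648 ± 131 TPM and the ubiquitin precursor gene Ubb was at 345 ± 52.6 TPM. The NEDD8 E2s Ube2m and Ube2f stood above both subunits of their E1, Uba3 at 10.7 ± 1.51 and Nae1 at 6.12 ± 0.618 TPM. Ube2z likewise stood above its E1 Uba6 at 3.30 ± 0.208 TPM.

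Of 9 other genes with the E2 fold all were detected, led by Ube2l6, the E2 for ISG15, at 105 ± 10.2 TPM, Cdc34 at 36.0 ± 3.24 and Ufc1 at 35.4 ± 1.24 TPM. Of 32 E3 partners 30 were detected, led by Rbx1, the RING subunit of cullin ligases, at 45.6 ± 1.89, Birc3 at 35.1 ± 2.29 and Skp1a at 32.5 ± 0.723 TPM. Nedd4 and Rad18, the ligase that works with Ube2a and Ube2b, were not detected, and Rad18 lay just under the limit at 1.02, 0.830 and 0.750 TPM. By the same chi-square test 6 of 8 E1 enzymes, 10 of 10 modifiers, 7 of 9 other E2-fold genes and 24 of 32 E3 partners differed beyond counting noise, where 64.8% of all genes did. In replicate 3, where 50.4% of all genes were higher than in the other libraries, 9 of 10 modifiers, 8 of 9 other E2-fold genes, 5 of 8 E1 enzymes and 18 of 32 E3 partners were lower. The differences between these lists were not tested, and the lists were not matched to all genes by count.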

How the data were processed

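Gene and transcript tables were used as the authors deposited them. Per the file headers they hold an expected count, a TPM value and a posterior SD of the count, a score for the uncertainty of read assignment. A second deposited table per library lists an estimated count with a TPM for each transcript, in kallisto's layout. The build was mm10 with GENCODE M21, per the text deposited with the files. The aligner, the quantifier with its version and the use of strand were not given in the sources used here. The labels give 1 µg as the RNA input of a library.

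Rows without an annotated gene were dropped (0.774%, 0.207% and 0.167% of the counts of replicates 1, 2 and 3). Depths were 28759407, 54709008 and 49878183. The posterior SD was at most 1.09% of the count of a detected member (Ube2v2). After rounding, counts were scaled with edgeR 4.0.16 (TMM, R 4.3.3), with DESeq2 1.42.0 size factors as an alternative. Dispersions used an intercept alone. The chi-square test was tested on simulated data. Copies were found with blastn 2.17.0. Other steps ran in Python 3.11.15 with scipy 1.17.1, numpy 2.4.6 and pandas 2.3.3. Rescaled TPM divides by the total of nuclear protein-coding genes, so that it does not depend on the share of non-coding RNA.

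Members, pairs, pathway lists and marker lists were chosen with earlier results of these data known. Values per library are given for the 10 highest and 3 lowest detected members, the paired members, members of extreme dispersion (5 highest, 3 lowest) and the 5 that differed most between the quantifications. Of each pathway list the 3 highest genes and any not detected are named. Some genes that meet these rules are not reported here. Transcripts, Uba3, Nae1, Uba6 and the copies were named after their values were seen. Ube2d2a has no printed window.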

Additional observations from a re-analysis of the deposited data

How the results depend on the processing

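No paired analysis was possible because the samples form 1 group. The median level of members (3.88 in log2(TPM + 1)) was 3.78 with pseudocount 0.1, 4.40 for detected members alone, 3.39 as a mean over members, 2.82 in the kallisto table and 5.59 after rescaling TPM. Members beyond counting noise (26) numbered 14 to 25 when 1 library was left out, 25 without replicate 1, 14 without replicate 2 and 15 without replicate 3, beside 51.5%, 44.3% and 42.5% of all genes. Members higher in replicate 1 (17) numbered 10 to 22, with 22 without replicate 2 (48.2% of all genes) and 10 without replicate 3 (49.0%). Members higher in replicate 3 (7) numbered 4 in the kallisto table (51.3% of all genes). The cause of these shifts was not tested. Detection gave 30 members at 0.1 TPM, 26 at 5 TPM, 26 in the kallisto table and 28 after rescaling. Among pairs, Ube2n minus Ube2v2 turned to −1.31 with protein-coding transcripts alone, an alternative chosen after seeing the data, as was adding copies. Ube2a minus Ube2b exceeded 3 SD without replicate 3 (−0.25), and Ube2n minus Ube2v1 without replicate 1 (−0.13). With protein-coding transcripts alone, 5 of 27 member levels moved by more than 1 SD. Depth limits members under the detection limit most in replicate 1, which has the fewest counts.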
